A study of Mus musculus with 6 samples.

Results

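The level of RNA from 10 genes that stromal fibroblasts and the cells around vessels are known to express was compared between isolated mammary cells of *fat-1* and wildtype (WT) mice. They are the small proteoglycans *Dcn*, *Lum*, *Bgn* and *Fmod*, the platelet-derived growth factor (PDGF) receptors *Pdgfra* and *Pdgfrb*, and the matrix genes *Fn1*, *Postn*, *Sparc* and *Fbln1*, chosen by symbol from 61880 rows of the count matrix. The transcript assembly can split a gene over several rows, so the counts of all rows of an assembled locus were added, and 10 of 53912 loci are described. A level is given as CPM, a count scaled to a common library size, from the locus sum unless a row is named.

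The study asked what lifelong exposure to *n*-3 polyunsaturated fatty acids does to the mammary epithelial transcriptome in puberty. RNA was sequenced from 3 *fat-1* and 3 WT samples of female FVB/NJ mice aged 6 to 8 weeks. The *fat-1* mice carry a transgene from *Caenorhabditis elegans* whose *n*-3 desaturase acts in the whole body, so that the mammary cells and the rest of the mouse differ together, and the WT mice carry none. Both genotypes stayed for life on the parental modified AIN93G diet, in which 10% of the weight and 22% of the energy was fat from safflower oil, rich in *n*-6 fatty acids. Each sample pooled inguinal glands of several mice after removal of lymph nodes, the estrous stage was not determined, and the cells were freed with collagenase and hyaluronidase and then trypsin and dispase. No sorting by a surface marker is described, so that RNA of cells other than epithelium can be counted. The numbers 1 to 3 name the samples of a genotype.

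Decorin, lumican, biglycan and fibromodulin have a core of leucine-rich repeats with glycosaminoglycan chains and bind collagen fibrils, whose diameter and spacing they are known to regulate. PDGFRα marks most fibroblasts of connective tissue and PDGFRβ marks pericytes as well as fibroblasts, and both are receptor tyrosine kinases for PDGF dimers, which epithelial and endothelial cells can secrete. Fibronectin is assembled into fibrils at the cell surface, periostin and SPARC are matricellular proteins that modify collagen assembly, and fibulin-1 joins fibronectin and elastic fibers. In the mammary gland this stroma surrounds the ducts and is remodeled while they elongate in puberty.

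Promoters of some of the genes are shown for reference, and their part in the levels was not tested. From the RefSeq table for GRCm38.p6, 8 promoters of 6 of the genes were taken (*Bgn*, *Fbln1*, *Fmod*, *Pdgfra*, *Postn* and *Sparc*). Each was 300 bases long, with 250 bases before and 50 from the start site on. *Dcn*, *Lum* and *Fn1* had no entry there, and *Pdgfrb* was left out of the search. Letters were searched on both strands for the TATA box (TATAAA), the GC box (GGGCGG), the CCAAT box (CCAAT), the AP-1 site (TGACTCA) and the MCAT element (CATTCC), and matches are in capitals. The promoters are of *Postn* (chr3:54360857-54361156, plus strand), *Bgn* (chrX:73483351-73483650, plus strand) and *Pdgfra* (chr5:75152001-75152300, plus strand), written 5′ to 3′.
Postn: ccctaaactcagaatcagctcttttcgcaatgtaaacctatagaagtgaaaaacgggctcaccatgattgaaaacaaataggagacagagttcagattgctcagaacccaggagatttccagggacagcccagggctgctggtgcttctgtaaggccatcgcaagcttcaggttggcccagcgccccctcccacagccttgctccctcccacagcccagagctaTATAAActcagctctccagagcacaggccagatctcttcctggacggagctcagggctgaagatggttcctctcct
Bgn: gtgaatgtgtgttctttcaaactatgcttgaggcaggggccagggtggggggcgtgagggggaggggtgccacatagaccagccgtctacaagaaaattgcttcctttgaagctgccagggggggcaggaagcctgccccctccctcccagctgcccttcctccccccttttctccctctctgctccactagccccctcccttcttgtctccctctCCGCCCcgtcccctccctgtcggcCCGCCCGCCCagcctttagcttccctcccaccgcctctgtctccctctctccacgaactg
Pdgfra: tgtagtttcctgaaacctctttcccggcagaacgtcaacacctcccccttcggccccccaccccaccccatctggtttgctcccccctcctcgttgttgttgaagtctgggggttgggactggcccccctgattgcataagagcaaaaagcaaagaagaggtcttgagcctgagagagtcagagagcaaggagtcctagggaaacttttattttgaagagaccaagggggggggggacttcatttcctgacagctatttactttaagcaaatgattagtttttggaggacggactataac
The *Postn* promoter held a TATA box whose first base lay at −26 from the start site, as 13.6% of 32851 promoters held those letters anywhere. In the *Bgn* promoter the GC box matched 3 times on the minus strand, at −34, −10 and −6, where the last pair overlaps, and 35.7% of all promoters held at least 1. The *Pdgfra* promoter had none of the 5 sets of letters. Of the promoters not printed, 1 of *Fbln1* had GC boxes at −11 and 11, that of *Fmod* a CCAAT box at 34 and the other of *Postn* one at 24, letters found in 37.4% of all promoters. AP-1 letters (5.20% of all promoters) and MCAT letters (14.7%) were in none of the 8. No set of letters was common to all 8 promoters, and a match is a run of letters rather than a site shown to be used.

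The 10 genes had slightly lower mean levels in *fat-1* than in WT, but no difference was larger than the spread between samples. All 10 had a log2 fold change below 0 in *fat-1* relative to WT, from −0.43 for *Pdgfra* to −0.13 for *Fbln1*, and all had an adjusted *p*-value of 1.00 by edgeR's quasi-likelihood test. Of 24061 loci tested, 49.4% were below 0, and the median log2 fold change was 0.00 over all loci and −0.25 over the 10 genes. At an adjusted *p*-value of 0.05 or under, 0 of the 10 and 0% of all loci passed by this test, and at the unadjusted threshold 0 of the 10 and 1.14% of all loci (274) did. Over all loci, edgeR's exact test gave 6 and DESeq2 gave 8 adjusted calls, and 0 of the 10 were among them. The 3 samples of a genotype overlapped with those of the other in all 10 genes, whereas 4.15% of all loci had no overlap. The *p*-values measure only the spread between these pooled samples. In such bulk RNA, fewer fibroblasts and less of an RNA per fibroblast cannot be told apart.

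The counts of a sample summed to between 204539059 and 232148824. Sample *fat-1* 1 was the lowest of the 6 in 10 of 10 genes, at 0.303 to 0.651 of each gene's mean over the samples, while 25.03% of the 9596 loci with a mean of at least 10 CPM were lowest there. Samples *fat-1* 3 and WT 2 were above the mean in 10 of 10 genes, at 1.10 to 1.54 and 1.07 to 1.56 of it. The other samples lay between, with medians over the genes of 0.902 (*fat-1* 2), 0.887 (WT 1) and 1.01 (WT 3).

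**Figure D1:**
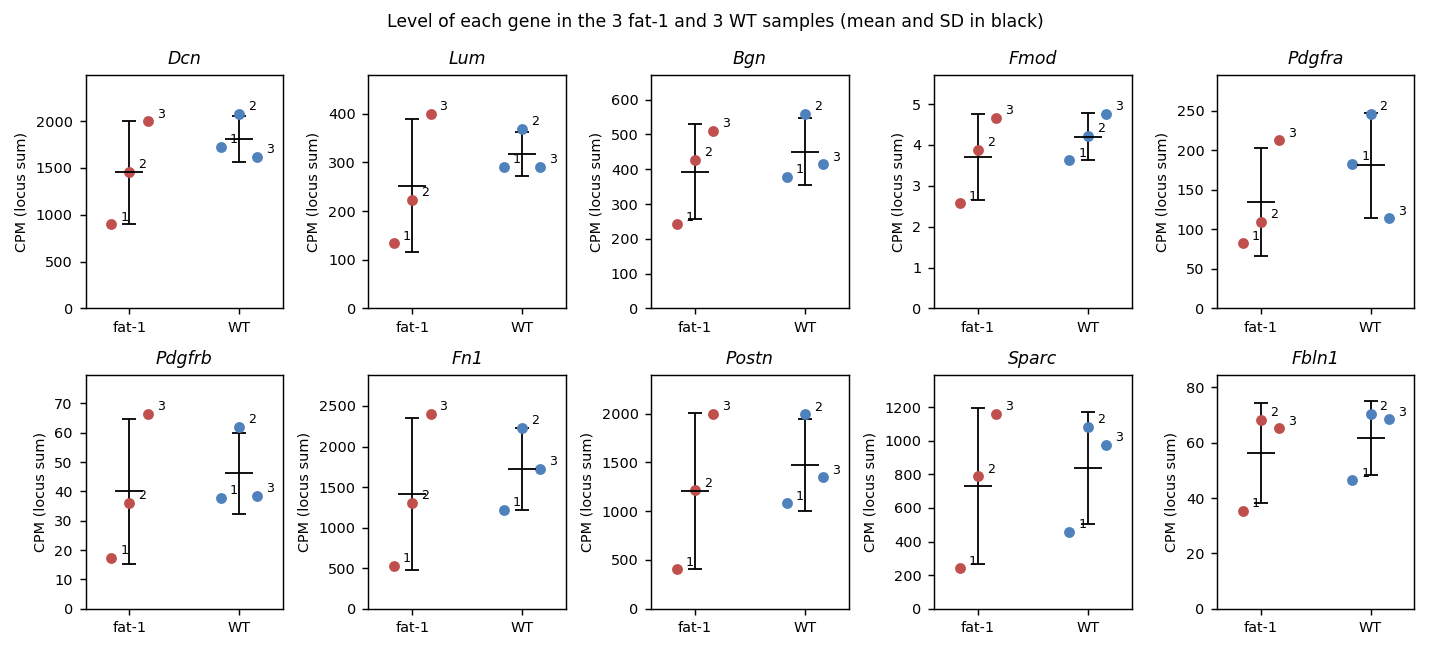
Level of each gene in CPM (locus sum, linear axis from 0) in the 3 *fat-1* samples (red) and the 3 WT samples (blue), numbered by sample, with the mean and SD in black. Sample *fat-1* 1 is the lowest point in all 10 panels, and the genotypes overlap in each panel.

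Among the proteoglycans, *Dcn* (decorin, chr10:97479609-97518143) had the highest level. Its levels were 898, 1462 and 1996 CPM in *fat-1* 1, 2 and 3 and 1726, 2080.4 and 1618 CPM in WT 1, 2 and 3, or 1452 ± 549 against 1808 ± 242 (SD, n = 3 each). WT 2 was highest and *fat-1* 3 lay above the other WT samples, so the genotypes overlapped. Its log2 fold change was −0.32 (SE 0.28).

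*Lum* (lumican, which keeps collagen fibrils thin and evenly spaced, as in the cornea) lies beside *Dcn* on the same strand (chr10:97565128-97572703). Lumican RNA stood at 133, 223 and 400.1 CPM in *fat-1* and at 291, 369 and 290.2 CPM in WT, giving 252 ± 136 against 317 ± 45.2. *fat-1* 3 was above all WT samples and the other *fat-1* samples were below them, so that the spread of *fat-1* was the wider. The log2 fold change was −0.33 (SE 0.38).

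*Bgn* (biglycan, chrX:73483602-73495933), which shares with decorin the binding of TGF-β, had 242, 427 and 511 CPM in *fat-1* and 379, 560.3 and 414 CPM in WT. The means were 394 ± 138 and 451 ± 96.3 and the log2 fold change was −0.20 (SE 0.29). Of the 3 *fat-1* samples only the first was below the WT range. *Fmod* (fibromodulin, chr1:134037254-134048277), a collagen-binding proteoglycan abundant in cartilage and tendon, was the scarcest of the 10, with 2.57, 3.89 and 4.66 CPM in *fat-1* and 3.62, 4.22 and 4.77 CPM in WT. It also varied least, with a highest sample 1.85-fold above the lowest, and its log2 fold change was −0.18 (SE 0.25). WT 3, and not WT 2 or *fat-1* 3, was the highest sample for *Fmod*.

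*Pdgfra* (chr5:75152292-75198215), the receptor for PDGF-A and other PDGF dimers that marks fibroblasts, had 82.6, 109 and 213 CPM in *fat-1* and 183, 246 and 114 CPM in WT. The means were 135 ± 68.6 and 181 ± 66.2, and the log2 fold change of −0.43 (SE 0.42) was the lowest of the 10. WT 3 and *fat-1* 2 differed little and both lay far below WT 2, so the spread within WT was close to that within *fat-1*. Annotated genes on the opposite strand, Gm42802 and Gm42803, share 456 and 166 of the 10024 exonic bases of *Pdgfra*, and without stated strand use their reads cannot be told apart.

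*Pdgfrb* (chr18:61045150-61085061), the receptor for PDGF-B on pericytes and fibroblasts, had 17.4, 36.2 and 66.5 CPM in *fat-1* and 37.8, 62.0 and 38.6 CPM in WT. These gave 40.0 ± 24.8 against 46.1 ± 13.8 and a log2 fold change of −0.20 (SE 0.48). The highest and the lowest sample were both *fat-1*, 3.82-fold apart. Within a sample the log2 ratio of *Pdgfra* to *Pdgfrb* was 2.25, 1.59 and 1.68 in *fat-1* and 2.27, 1.99 and 1.56 in WT, so both samples numbered 1 and WT 2 had the most *Pdgfra* for their *Pdgfrb*. This ratio did not separate the genotypes (difference −0.10, exact two-sided permutation *p* = 0.900, adjusted over 8 ratios 1.00).

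*Fn1* (fibronectin, chr1:71585520-71653200, minus strand), which integrins bind and which is needed for the assembly of other matrix proteins, had 530.1, 1309 and 2403 CPM in *fat-1*. In WT it had 1221, 2228 and 1724 CPM. With 1414 ± 941 against 1724 ± 503, the log2 fold change of −0.29 was smaller than its SE of 0.52. *fat-1* samples 1 and 3 bracketed all WT samples, and the highest was 4.53-fold above the lowest. Of its 11685 exonic bases, 292 overlap the antisense gene Apol7d.

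*Postn* (periostin, chr3:54361109-54391037), a matricellular protein of collagen-rich and remodeling tissues, had 406, 1215 and 1999 CPM in *fat-1* and 1081, 1993 and 1348 CPM in WT. The means were 1207 ± 796 and 1474 ± 469, and the log2 fold change was −0.29 (SE 0.54). It had the widest range of the 10 genes, 4.92-fold, and *fat-1* 3 and WT 2 were its highest samples, at nearly the same level. *Sparc* (SPARC or osteonectin, chr11:55394500-55423183, minus strand), which binds collagen and calcium, had 239.8, 788 and 1160 CPM in *fat-1* and 457, 1083 and 975 CPM in WT. Here both samples numbered 1 were low, the means were 729 ± 463 and 838 ± 335, and the log2 fold change was −0.20 (SE 0.58).

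*Fbln1* (fibulin-1, chr15:85205949-85286535), a glycoprotein of basement membranes and elastic fibers, had 35.3, 68.3 and 65.2 CPM in *fat-1* and 46.4, 70.4 and 68.4 CPM in WT. The means were 56.3 ± 18.2 and 61.8 ± 13.3 with a log2 fold change of −0.13 (SE 0.29), the one nearest to 0. The 4 samples numbered 2 and 3 were alike, and both samples numbered 1 were below them. *Sparc* was low in the same 2 samples, whereas *Dcn* and *Pdgfra* in WT 1 were above the mean of the 6 samples.

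**Figure D2:**
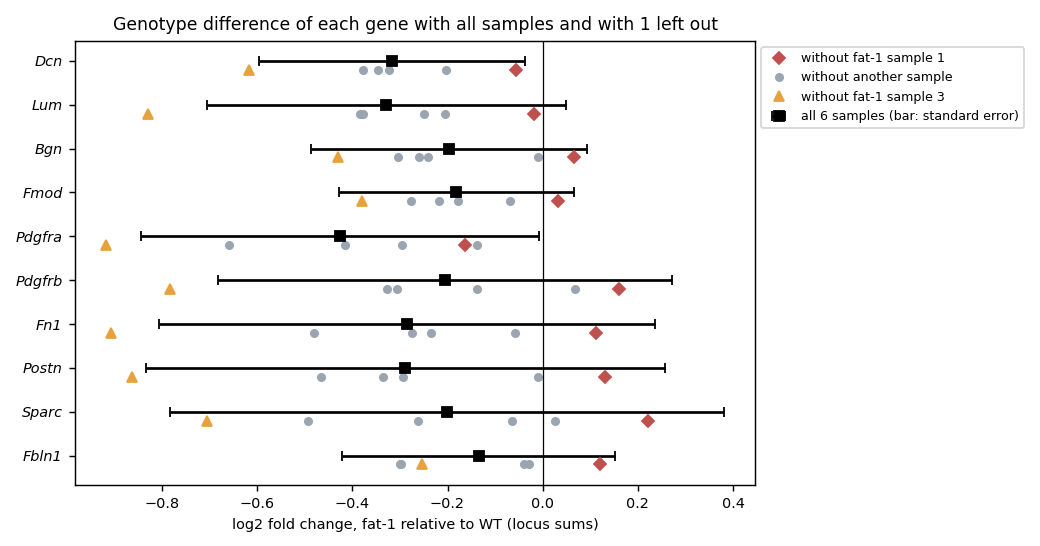
Log2 fold change of each gene in *fat-1* relative to WT with all 6 samples (black square, bar for the standard error) and with 1 sample left out (colored points). Leaving out *fat-1* 1 moved 7 of the 10 genes above 0, and leaving out *fat-1* 3 gave the lowest value for every gene except *Fbln1*.

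The direction depended on single samples, *fat-1* 1 most of all. Without *fat-1* 1, only *Dcn* (−0.06), *Lum* (−0.02) and *Pdgfra* (−0.16) stayed below 0, the other 7 genes lay between 0.03 (*Fmod*) and 0.22 (*Sparc*), and the median was 0.09. Without *fat-1* 3, the median was −0.74, and *Dcn* (−0.62, unadjusted *p* = 0.0457), *Lum* (−0.83, unadjusted *p* = 0.0211) and *Pdgfra* (−0.92, unadjusted *p* = 0.0445) reached the unadjusted threshold by edgeR's quasi-likelihood test. Their adjusted *p*-values were 1.00. Without WT 2, *Pdgfrb* (0.07) and *Sparc* (0.03) were above 0 and the other 8 below, and the median over the 10 was −0.04.

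The genes varied far more within a genotype than most loci did. The SD of log2(CPM + 1) within genotypes had a median of 0.603 over the 10 genes, from 0.265 (*Fmod*) to 0.964 (*Sparc*), beside a median of 0.152 over the 9596 loci with at least 10 CPM, of which 8.65% had an SD of 0.603 or more. The highest sample was above the lowest by a median of 2.99-fold in the 10 genes and of 1.30-fold in those loci. *Fmod*, below 10 CPM itself, was the least variable and *Sparc*, *Postn* and *Fn1* the most.

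Levels between genes were set side by side per kilobase of exon. In mean CPM per kb, *Dcn* (279) was followed by *Sparc* (207), *Postn* (154), *Fn1* (134), *Lum* (116) and *Bgn* (69.2), and then by *Pdgfra* (15.8), *Fbln1* (13.5), *Pdgfrb* (7.86) and *Fmod* (1.20). The ranges over the 6 samples of neighbors in this order overlapped except between *Bgn* and *Pdgfra* and between *Pdgfrb* and *Fmod*. *Fn1* was above *Lum*, and *Pdgfra* above *Fbln1*, in 4 of 6 samples, *Sparc* was above *Postn* in 5 of 6, and the other neighbors kept their order in 6 of 6. Genes further apart in the order need not overlap, as *Dcn* (153.8 to 356 CPM per kb) and *Bgn* (39.7 to 91.9) did not.

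Ratios within a sample show whether the genes moved unequally. The log2 ratio of *Sparc* to *Dcn* was −1.90, −0.89 and −0.78 in *fat-1* and −1.92, −0.94 and −0.73 in WT, so that the samples numbered 1 of both genotypes had less *Sparc* for their *Dcn* than the other 4. For *Postn* to *Dcn* it was −1.14, −0.27 and 0.00 in *fat-1* and −0.67, −0.06 and −0.26 in WT, and for *Fn1* to *Dcn* −0.76, −0.16 and 0.27 against −0.50, 0.10 and 0.09. In these ratios too the samples numbered 1 were the lowest. The proteoglycans kept closer ratios, with *Dcn* to *Bgn* between 1.78 and 2.19, *Dcn* to *Lum* between 2.32 and 2.75 and *Dcn* to *Fmod* between 8.41 and 8.95 on the log2 scale, whereas *Fbln1* to *Dcn* spanned −5.22 to −4.42. In exact permutation tests, the adjusted *p*-value was 1.00 for all 8 ratios, and 3 samples against 3 cannot give a raw *p*-value below 0.1.

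**Figure D3:**
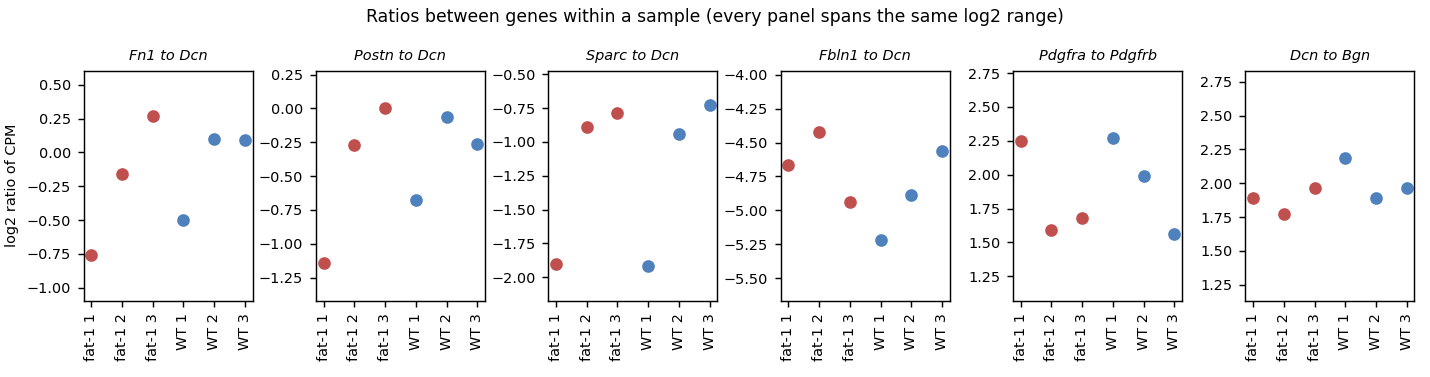
Log2 ratio of CPM between 2 genes within each sample (*fat-1* red, WT blue); all panels span the same log2 range. The ratios of *Fn1*, *Postn* and *Sparc* to *Dcn* are lowest in *fat-1* 1 and WT 1, and the ratio of *Dcn* to *Bgn* varies little.

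The rows of the matrix split 7 of the 10 loci, 17 rows in all, and for 6 of them the other row had no gene symbol (that of *Pdgfra* was Mir7025, with 8 to 22 counts). For *Postn*, the row with the symbol held 98.2%, 89.5% and 86.4% of the locus counts in *fat-1* and 98.9% in each WT sample, so the genotypes did not overlap. The unnamed row had 1546, 27248 and 56736 counts in *fat-1* against 2540, 4742 and 3064 in WT. The counts of the unnamed row did overlap. The exact permutation *p* of the share was 0.1, the smallest possible, and 0.467 adjusted over 7 loci. Shares without overlap were not counted over the split loci of the whole matrix. For *Pdgfrb* the row with the symbol held a minority of counts in most samples, 40.3%, 27.9% and 30.3% in *fat-1* and 34.9%, 51.1% and 47.5% in WT (exact permutation *p* = 0.2, adjusted 0.467).

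For *Sparc* it was the samples that differed, since the unnamed row had 870, 4 and 9707 counts in *fat-1* and 19582, 9138 and 4 in WT. That is 80.0% of the *Sparc* locus in the named row of WT 1 and 99.998% in *fat-1* 2 and WT 3. In *Bgn* the share ranged from 57.1% (*fat-1* 2) to 82.1% (*fat-1* 1), in *Fn1* from 52.7% (*fat-1* 3) to 66.3% (*fat-1* 2) and in *Lum* from 91.9% (WT 1) to 99.99% (*fat-1* 2), and in none of them were the genotypes apart.

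**Figure D4:**
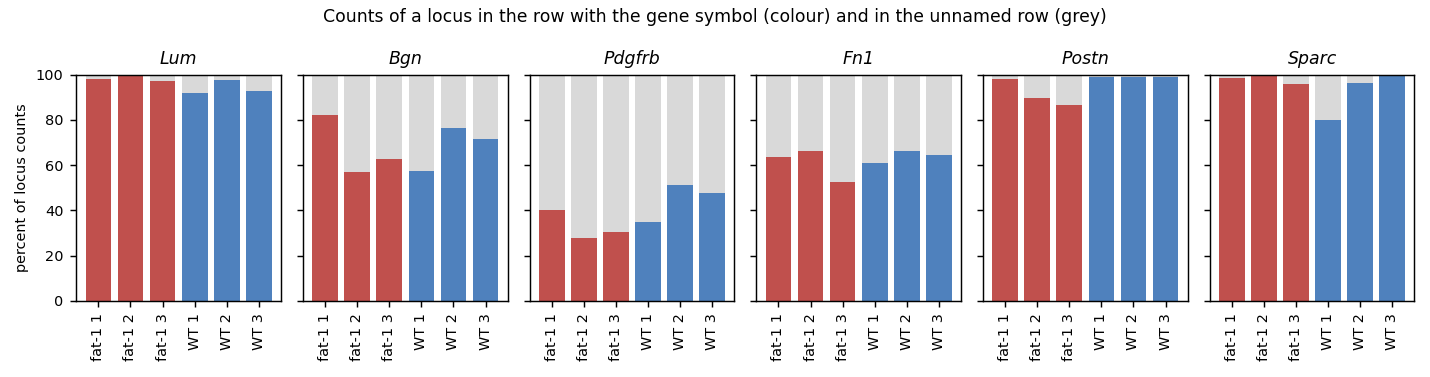
Share of the counts of a locus, in percent, in the row that carries the gene symbol (red in *fat-1*, blue in WT) and in the row without a symbol (grey), per sample. For *Postn* all 3 WT bars reach 98.9%, above each *fat-1* bar, and for *Pdgfrb* the unnamed row holds most counts in 5 of 6 samples.

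Tested as single rows, the 10 genes were again all below 0, with a median log2 fold change of −0.31. By edgeR's quasi-likelihood test 0 of 10 passed the adjusted threshold (0% of 30683 rows) and 0 of 10 the unadjusted one (2.21% of rows), and 0 of 10 rows had genotypes that did not overlap (5.26% of rows). The choice of row mattered most for *Pdgfrb*, at −0.76 (SE 0.50) by the row with the symbol against −0.20 by the locus. It was −0.44 against −0.29 for *Postn*, −0.43 against −0.29 for *Fn1* and −0.30 against −0.20 for *Bgn*. By rows, the log2 ratio of *Pdgfra* to *Pdgfrb* was higher in *fat-1* by 0.34 instead of lower by 0.10, so its direction depended on the unnamed row.

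Of the other genes of these families and pathways, 0 loci passed the adjusted threshold by edgeR's quasi-likelihood test, and the share below 0 differed between lists, beside 49.4% and a median of 0.00 over all loci. Of 12 further small leucine-rich proteoglycans, all 12 were below 0 with a median log2 fold change of −0.23, 0 had an unadjusted *p*-value of 0.05 or under, and 9 were lowest in *fat-1* 1. The most abundant was *Ogn* (osteoglycin, 28.3 CPM), and 5 of the 12 had a mean under 1 CPM. *Prelp*, which anchors basement membranes to connective tissue, had −0.55 (SE 0.38) and *Nyx* −0.24. Of 11 large proteoglycans and hyaluronan genes, 9 had enough counts and 6 were below 0 (median −0.12). Among these were *Hspg2* (perlecan, −0.19), a basement membrane proteoglycan, and *Bcan* (−0.56, SE 0.78), which had under 0.1 CPM in every sample. Of 11 genes that build glycosaminoglycan chains, 8 were below 0 (median −0.05), with *Csgalnact1*, which starts chondroitin chains, at −0.84 (SE 0.44) and *Chst14*, a dermatan sulfotransferase, at −0.19.

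Of 5 genes, the PDGF ligands and a PDGF receptor-like gene, 4 were below 0 (median −0.13) and 0 passed the unadjusted threshold. *Pdgfa*, the most abundant, had 31.5, 14.1 and 20.7 CPM in *fat-1* and 31.9, 22.2 and 16.4 CPM in WT. It was high in both samples numbered 1, where *Pdgfrb* and the matrix genes were below their means. *Pdgfc* (−0.24) was also highest in these 2 samples, and *Pdgfd* (−0.17) was lowest in *fat-1* 1.

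Of 20 elastic fiber and fibulin genes 17 were lowest in *fat-1* 1. Of the 20, 18 were below 0 (median −0.16), with *Hmcn1* (hemicentin, −0.18) among them. The exception with the largest difference was *Ltbp2*, a fibrillin-binding protein of the latent TGF-β binding protein family, with 22.0, 13.2 and 14.8 CPM in *fat-1* and 11.4, 10.1 and 10.7 CPM in WT. Every *fat-1* sample was above every WT sample, with a log2 fold change of 0.64 (SE 0.21, unadjusted *p* = 0.0210 and adjusted *p* = 1.00 by edgeR). *Ltbp2* was the only 1 of the 20 genes without overlap, beside 4.15% of all loci. Of 19 matricellular genes 15 were below 0 (median −0.18), including *Matn2* (−0.35), and 11 of the 19 were lowest in *fat-1* 1. *Spp1* (osteopontin) had 6.07, 3.93 and 4.72 CPM in *fat-1* and 6.92, 6.82 and 6.69 CPM in WT, without overlap (−0.47, SE 0.18, unadjusted *p* = 0.0395 and adjusted *p* = 1.00 by edgeR). It was likewise the only 1 of the 19 without overlap, and its locus also holds Gm42793. Of 12 TGF-β ligand, receptor and related genes 6 were below 0 (median 0.00), with *Tgfbr1* at −0.14 and *Tgfbr2* at 0.17. Of the 12, 2 were lowest in *fat-1* 1.

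The pattern over samples was also compared with that of all other named loci. The loci nearest to *Dcn* by the root mean square difference of centered log2(CPM + 1) over the 6 samples, among 9399 named loci with at least 10 CPM, were *Tcn2* (0.0674), *P3h3* (0.0704) and *Aebp1* (0.0786). Among the nearest to *Pdgfra* were *Gpr153* (0.109) and *Antxr1* (0.129, a locus shared with Gm44417). The nearest to *Postn* was *Fn1* itself (0.102), followed by *Ccl8* (0.103) and *Col5a1* (0.112), a fibrillar collagen gene. These are descriptions over 6 samples that share their libraries.

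**Figure D5:**
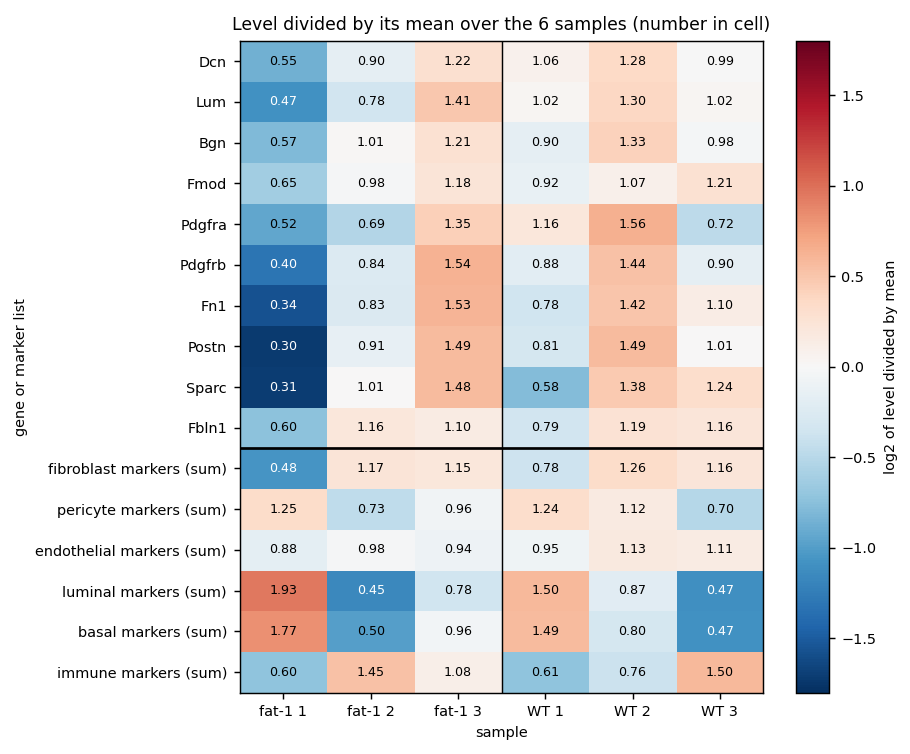
Level in each sample divided by the mean of the 6 samples (number in the cell, color on a log2 scale) for the 10 genes and for the summed CPM of marker lists of 6 cell types. *fat-1* 1 is lowest in all 10 genes and in the fibroblast, endothelial and immune sums, and highest in the luminal, basal and pericyte sums.

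Marker sums of cell types differed in how they followed these genes over the samples. The 10 genes were set beside 12 other fibroblast markers, whose sum was 2214, 5420 and 5337 CPM in *fat-1* and 3589, 5841 and 5375 CPM in WT. All 11 with enough counts were lowest in *fat-1* 1, led by *Gsn* (gelsolin, 3211 CPM), and *Tcf21* had 0.0395 CPM. The endothelial and immune marker sums were also lowest in *fat-1* 1. This order therefore cannot test whether the 10 are fibroblast genes. The transcription factors *Prrx1* and *Twist2* were highest in WT 2 and above their WT 3 level in WT 1, as *Pdgfra* was. By contrast *Pi16* had 20.1, 101 and 87.1 CPM in *fat-1* and 30.2, 71.3 and 119 CPM in WT, and *Dpp4* had 21.7, 87.1 and 66.8 CPM against 25.1, 46.8 and 85.5 CPM. Both are known from fibroblasts of the adventitia, both were chosen after their values were seen, and they were high in *fat-1* 2 and WT 3, where *Pdgfra* was low. The list was evenly divided on this, since 6 of the 12 markers were higher in WT 3 than in WT 2 and 6, *Prrx1* and *Twist2* among them, were lower.

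The luminal marker sum was 4283, 987 and 1731 CPM in *fat-1* and 3328, 1930.2 and 1033 CPM in WT, led by *Cldn4*, and the basal sum was 505, 143 and 274 CPM against 424, 229 and 134 CPM, led by *Myh11*. In both genotypes the sample numbered 1 had the most epithelial RNA, and its levels of *Fn1*, *Postn* and *Sparc* were the lowest of the genotype. The 10 luminal and the 9 basal markers included none lowest in *fat-1* 1. The part of epithelial and fibroblast content in the levels of the 10 genes was not tested.

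Pericyte markers summed to 61.6 to 106 CPM in *fat-1* and 58.9 to 105 CPM in WT and were led by *Notch3*, with *Higd1b* at 0.0165 CPM, and the sum was highest in *fat-1* 1, where *Pdgfrb* was lowest. That order came from *Notch3*, with 79.4 CPM there. Without it the sum was 26.2, 41.8 and 35.4 CPM in *fat-1* and 29.7, 48.3 and 35.5 CPM in WT, lowest in *fat-1* 1, as were 5 of the 8 markers. *Rgs5* (−0.20) and *Mcam* (−0.20) were lowest in *fat-1* 1 like *Pdgfrb*. Endothelial markers summed to 260.4 to 289.95 CPM in *fat-1* and 280.4 to 333 CPM in WT. *Pecam1* led this list, whose median log2 fold change was −0.24, and 4 of its 10 genes were lower in every *fat-1* than in every WT sample, where 4.15% of all loci had no overlap in either direction. Of these 4, *Erg* had −0.31 (SE 0.12, unadjusted *p* = 0.0372 and adjusted *p* = 1.00 by edgeR), and *Emcn*, whose samples overlapped, had −0.38. Their part in the values of the 10 genes was not tested.

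Immune markers, led by *Ptprc*, summed to 407, 977 and 729 CPM in *fat-1* and 409, 516 and 1011 CPM in WT. This sum was about equally low in *fat-1* 1 and WT 1. Of the 13 immune markers, 5 were lowest in *fat-1* 1, and *Ptprc* was lowest in WT 1. Lymph node stroma markers summed to 56.2 to 167 CPM in *fat-1* and 42.2 to 136 CPM in WT, and *Ccl19* had a log2 fold change of 2.16 (SE 0.71, unadjusted *p* = 0.0214 and adjusted *p* = 1.00 by edgeR) at 0.539 CPM. Of 7 adipocyte markers, 6 were under 1 CPM, *Lep* the lowest at 0.0848 CPM. *Fabp4*, which endothelial cells also express, had 105 CPM and was lower in every *fat-1* than in every WT sample (−0.31, SE 0.12, unadjusted *p* = 0.0370 and adjusted *p* = 1.00 by edgeR). It was the only 1 of the 7 without overlap, beside 4.15% of all loci. Schwann cell markers summed to 78.5 to 162 CPM in *fat-1* and 83.5 to 159 CPM in WT and were led by *Mbp*. The part of these cells in the values was not tested.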

How the data were processed

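Isolated mammary cells of 3 *fat-1* and 3 WT pooled samples were compared, grouped by the sample labels. The authors mapped reads to GRCm38 with HISAT2, assembled transcripts with StringTie and deposited estimated counts per row as whole numbers, so rounding changed nothing. The tool versions, annotation, strand setting and step from coverage to counts are not given in the sources used here. Blank lines were skipped, and 0 value columns had no sample.

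Counts were summed per locus and tested by quasi-likelihood in edgeR 4.0.16 (R 4.3.3; legacy = FALSE, genotype only, filterByExpr, TMM, Benjamini–Hochberg, threshold 0.05), first tested on simulated data. A locus or row was tested if it passed the filter. The coefficient of biological variation was 0.302 for loci and 0.451 for rows. Standard errors were derived as the absolute log2 fold change over the root of F. Ratios and row shares were compared by exact permutation tests. Alternatives were other scalings, filters, fits, DESeq2 1.42.0, limma 3.58.1, a replicate block and leaving out each sample.

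The members and lists were chosen with earlier results of these data known. Named were all members, at most 2 genes per list with the smallest *p*-value, the most abundant marker of each cell type, and the 3 loci most like *Dcn*, *Pdgfra* and *Postn*, of which 1 is not reported here. *Pi16*, *Dpp4*, *Ogn*, *Pdgfa*, *Tcf21*, *Higd1b* and *Lep* fall outside this rule and were chosen after their values were seen. Marker loci shared with another coding gene were left out of sums. Gene positions are from GENCODE (GRCm38), promoters from RefSeq (GRCm38.p6). Figures used matplotlib 3.10.9.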

Additional observations from a re-analysis of the deposited data

How the results depend on the processing

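The log2 fold changes of the 10 genes kept their sign in all 220 values from other scalings, filters, tests and designs. With 1 sample left out, 105 of 120 kept it, and 15 changed sign. The lowest and highest values by locus were −0.43 and 0.066 (*Bgn*), −0.38 and 0.032 (*Fmod*), −0.78 and 0.16 (*Pdgfrb*), −0.91 and 0.11 (*Fn1*), −0.86 and 0.13 (*Postn*), −0.71 and 0.22 (*Sparc*) and −0.30 and 0.12 (*Fbln1*). By row they were −0.75 and 0.039 (*Lum*), −0.37 and 0.030 (*Fmod*), −0.63 and 0.26 (*Sparc*) and −0.30 and 0.12 (*Fbln1*). The genes below 0 numbered 3 to 10 by locus and 6 to 10 by row, and those at the unadjusted threshold 0 to 3 and 0 to 2. The cause of these shifts was not tested.

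Log2 ratios between genes had differences from −0.31 to 0.062 (*Pdgfra* to *Pdgfrb*), −0.36 to 0.16 (*Fn1* to *Dcn*), −0.37 to 0.20 (*Postn* to *Dcn*) and −0.36 to 0.36 (*Sparc* to *Dcn*) with 1 sample left out. By rows, *Pdgfra* to *Pdgfrb* was 0.34. The row of *Pdgfrb* held a mean of 32.8% of its locus in *fat-1* and 44.5% in WT. Row shares differed by −8.57 to 3.93 percentage points (*Bgn*), −0.00777 to 0.0028 (*Pdgfra*), −5.77 to 1.04 (*Fn1*) and −0.0519 to 9.96 (*Sparc*).

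Over all loci, adjusted calls were 0, but 6 by edgeR's exact test, 8 by DESeq2 and 0 to 1 with 1 sample left out, and over rows 0, 32, 93 and 0 to 2. Unadjusted calls of 274 loci became 579 without a filter, 63 with at least 1 CPM in 3 samples and 204 to 542 with 1 sample left out, and 678 rows became 1136 and 382. With a replicate block, 376 loci and 784 rows passed the unadjusted and 0 the adjusted threshold, and the median of the 10 genes was −0.38. The block lowered the SE by locus of every member except *Pdgfra* (0.47 instead of 0.42). That of *Sparc* was 0.24 instead of 0.58 and that of *Fbln1* 0.11 instead of 0.29. Still 0 of the 10 passed the unadjusted threshold. Deviations of samples with the same number correlated at 0.51, −0.10 and 0.07, and 2 of 6 samples correlated best with their own number, so the numbers were not taken as pairs.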
